A study of Mus musculus with 8 samples.

Results

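Endothelial marker genes were followed in bulk liver RNA from mice that lack *Usp39* in hepatocytes and from control mice. The set held 10 of the 55385 gene identifiers in the deposited table, taken by gene symbol. The genes *Stab1*, *Stab2*, *Lyve1*, *Clec4g*, *Oit3* and *Gpr182* mark the liver sinusoidal endothelium, *Kdr* and *Pecam1* mark endothelium in general, and *Cd34* and *Vwf* mark continuous capillaries and larger vessels. All 10 had reads in every liver. The *Usp39*-HKO group comprised 4 male C57BL/6J mice with *Usp39* alleles flanked by loxP sites (*Usp39* fl/fl) and a Cre transgene driven by the Albumin promoter, which acts in the hepatocyte lineage and not in endothelial cells. The control group comprised 4 male littermates that the labels call WT, without giving their floxed or Cre alleles. All mice were 5 weeks old and had been fasted for 16 h, and each library came from 1 mouse.

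The liver sinusoid is lined by a thin, fenestrated endothelium without an organised basement membrane. Its cells clear waste molecules from the blood through scavenger receptors, among them stabilin-2, which takes up hyaluronan. When such cells lose their specialised state in injured liver, a process known as capillarisation, sinusoidal genes such as *Lyve1* and *Stab2* are known to fall and capillary genes such as *Cd34* to rise, and the comparison of the genotypes is set out below along that division.

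Counts on genes summed to between 8589636 and 10418450 per liver. *Usp39* itself had an FPKM of 9.58 ± 0.706 (SD, n = 4) in control livers and 8.44 ± 0.286 (SD, n = 4) in *Usp39*-HKO livers, with a log2 fold change of −0.41 (SE 0.11, edgeR adjusted p = 0.0212). The liver marker *Alb*, the gene of serum albumin, stood at 7960 ± 533 and 8420 ± 1160 FPKM. The library of control mouse A475 stood apart, because 7 pancreas genes summed to 463 FPKM in it and to between 2.92 and 4.84 FPKM in the other livers. Values without this library are given for the 10 markers and for the counts on the 4 endothelial lists. They are not given for the other gene lists and single genes. FPKM (counts scaled to exon length and to the total of the liver) allow levels of different genes to be compared, but they were not centred between livers, and log2(FPKM + 1) of the median gene differed by 0.17, the *Usp39*-HKO livers being higher. Log2 fold changes come from edgeR with TMM scaling (trimmed mean of M values), which sets the median gene near 0 (−0.0015), and a gene is called at an adjusted p under 0.05 over all genes tested.

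Among the endothelial markers, *Lyve1* fell to about 0.58 of its control mean FPKM in *Usp39*-HKO livers. *Cd34* was 3.66 times and *Vwf* 1.61 times as high by the same measure. This ratio was 0.913 for *Stab2*, 0.936 for *Oit3*, 0.97 for *Stab1*, 1.04 for *Gpr182* and 1.19 for *Clec4g*. It was 1.05 for *Kdr* and 1.27 for *Pecam1*. The groups overlapped in FPKM for *Stab2* (exact permutation p = 0.314) and for *Cd34* (exact permutation p = 0.0571). Of the 10 markers, 9 passed the filter on low values (0.5 FPKM or more in 4 or more livers). None of the 9 was called higher and 2, *Lyve1* and *Stab2*, were called lower, against 10.9% and 11.6% of all 14340 genes tested and 22.5% in either direction. At an unadjusted p under 0.05 edgeR had 1 marker higher (*Vwf*) and 3 lower (*Lyve1*, *Stab2* and *Oit3*). The share of all genes tested that reached this looser threshold was not counted, so these numbers have no background beside them. DESeq2 called 1 marker higher (*Vwf*), and edgeR without TMM and limma on log2(FPKM + 1) each called 2 (*Pecam1* and *Vwf*). The median log2 fold change of the 9 was −0.18. The study's own cutoff requires a log2 fold change beyond 0.5 and takes the unadjusted p at 0.05, and of the 9 tested markers *Lyve1* passed it. *Cd34*, which did not enter this fit, also passed it in the fit with no filter on low values described below. The share of all genes that passed this cutoff was not counted in either fit, so it has no background either. In bulk liver, fewer cells of a type and less RNA per cell cannot be told apart.

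**Figure D1:**
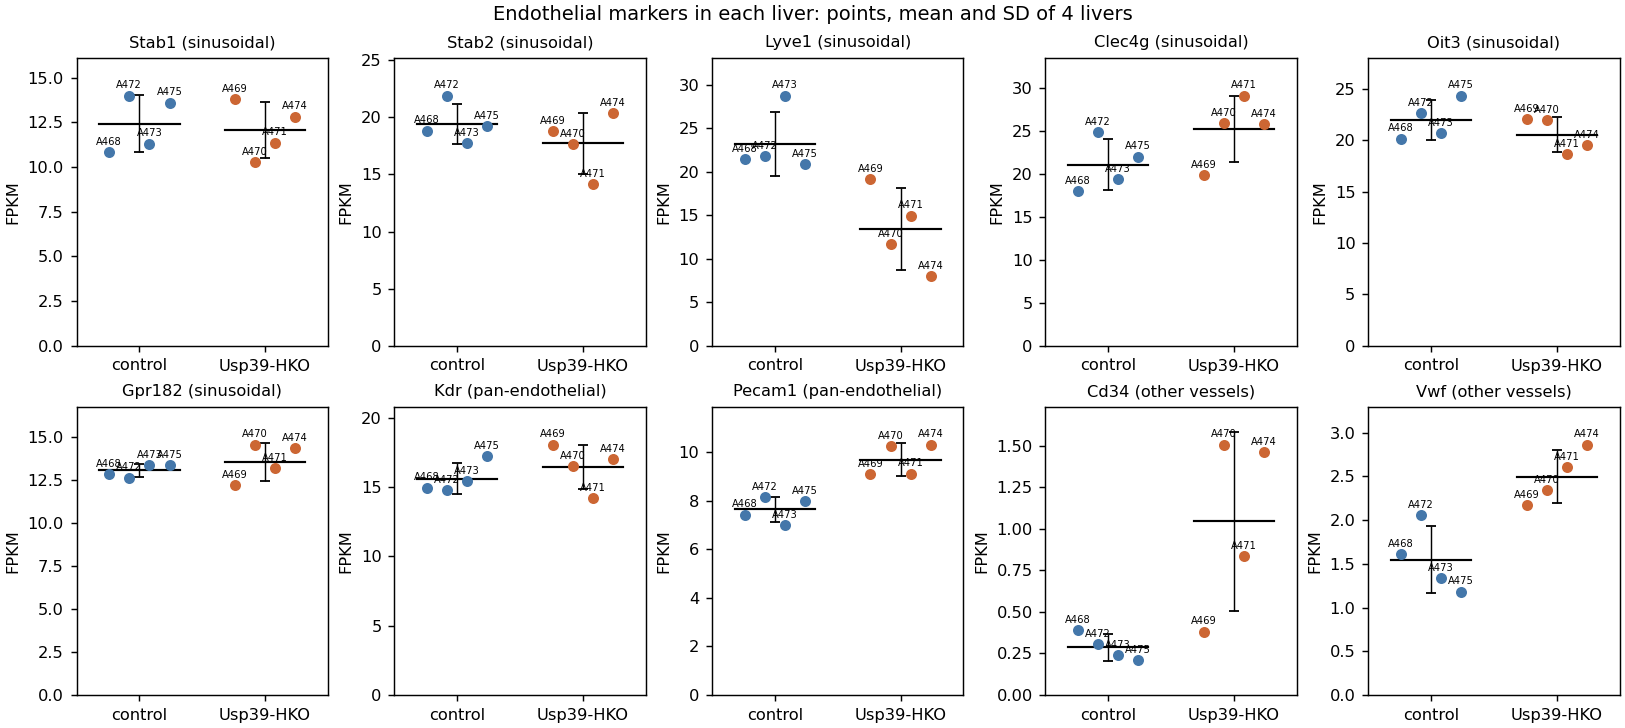
FPKM of the 10 endothelial markers in each liver (y axis, from 0), with control livers in blue and *Usp39*-HKO livers in orange, each point labelled by mouse, and the horizontal line and bar giving the mean and SD of 4 livers. *Lyve1* is lower in every *Usp39*-HKO liver than in any control, *Pecam1* and *Vwf* are higher in every one, and *Cd34* is high in 3 of the 4.

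In control livers the mean FPKM of the markers ranged from 0.286 to 23.2, and the sinusoidal markers stood above the markers of other vessels. *Lyve1* (23.2 ± 3.72), *Oit3* (22.0 ± 1.91), *Clec4g* (21.1 ± 3.01) and *Stab2* (19.4 ± 1.77, all SD, n = 4) were the highest, and the ranges of neighbours among them overlapped. *Kdr* (15.6 ± 1.12) came next and overlapped neither *Stab2* above it nor *Gpr182* below it, *Gpr182* (13.0 ± 0.372) and *Stab1* (12.4 ± 1.6) overlapped, and *Pecam1* (7.65 ± 0.525), *Vwf* (1.55 ± 0.384) and *Cd34* (0.286 ± 0.0789) followed without overlap. In *Usp39*-HKO livers *Clec4g* was the highest at 25.2 ± 3.85 FPKM, and *Lyve1* had moved to the sixth place at 13.5 ± 4.73 FPKM, beside *Gpr182* at 13.6 ± 1.1 FPKM. *Vwf* and *Cd34* remained the lowest, at 2.5 ± 0.303 and 1.05 ± 0.539 FPKM. The levels of *Lyve1* and *Cd34* varied most between *Usp39*-HKO livers, with coefficients of variation of 35.1% and 51.6%, against 6.98% for *Pecam1*.

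*Lyve1* encodes a hyaluronan receptor of sinusoidal and lymphatic endothelium and lies on the minus strand of GRCm38 chromosome 7 from 110850607 to 110863239. Its FPKM was 21.4, 21.8, 28.8 and 20.9 in control mice A468, A472, A473 and A475. It was 19.1, 11.7, 15.0 and 8.02 in *Usp39*-HKO mice A469, A470, A471 and A474. Every *Usp39*-HKO liver was below every control liver, with mouse A474 the lowest and mouse A469 close to the controls (exact permutation p = 0.0286, two-sided, which is the smallest value that 4 livers against 4 allow). The FPKM of 3 of the 9 tested markers (*Lyve1*, *Pecam1* and *Vwf*) did not overlap between the groups. This share is near the 28.7% of all genes tested that had that property. After TMM scaling the groups overlapped for *Pecam1* and for *Vwf*. The log2 fold change of *Lyve1* was −1.0 (SE 0.25, edgeR adjusted p = 0.016), and 15 of 16 alternative fits called it, with fold changes between −1.24 and −0.78. The exception was the fit without control mouse A473, the highest liver, which gave −0.87 with an adjusted p of 0.0537. Without control mouse A475 the fold change was −1.05 (adjusted p = 0.0336).

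*Stab2*, the gene of the hyaluronan scavenger receptor stabilin-2, lies on the minus strand of chromosome 10 from 86841198 to 87008025. Its FPKM was 18.8, 21.9, 17.7 and 19.2 in control mice A468, A472, A473 and A475, and 18.8, 17.6, 14.1 and 20.3 in *Usp39*-HKO mice A469, A470, A471 and A474. On this scale the groups overlapped, and the means of 19.4 ± 1.77 and 17.7 ± 2.64 (SD, n = 4) did not separate in the exact permutation test (p = 0.314). After TMM scaling the control livers lay between 169.8 and 207.7 CPM (counts scaled to the library total) and the *Usp39*-HKO livers at 162.9, 142.9, 116.7 and 149.7, all below them (exact permutation p = 0.0286). The edgeR log2 fold change was −0.37 (SE 0.12, adjusted p = 0.0481). This call was narrow: *Stab2* was called in 4 of 16 alternative fits, and leaving out any single liver but *Usp39*-HKO mouse A469 ended it (adjusted p between 0.0722 and 0.12, fold changes between −0.41 and −0.28). Without TMM the fold change was −0.13 with an adjusted p of 0.458, and without control mouse A475 it was −0.38 with an adjusted p of 0.092.

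The 4 remaining sinusoidal markers were not called. *Oit3*, which encodes a secreted liver protein, ranged from 20.2 to 24.3 FPKM in controls and from 18.6 to 22.1 in *Usp39*-HKO livers, with a log2 fold change of −0.32 (SE 0.11, edgeR adjusted p = 0.056). It was called in 2 of 16 alternative fits. *Stab1*, which encodes the related scavenger receptor stabilin-1, ranged from 10.8 to 14 and from 10.3 to 13.8 FPKM and had a log2 fold change of −0.27 (SE 0.13, edgeR adjusted p = 0.158). *Gpr182*, the gene of a chemokine-binding receptor, was the least variable between control livers (12.6 to 13.4 FPKM) and ranged from 12.2 to 14.5 FPKM in *Usp39*-HKO livers. Its fold change was −0.18 (SE 0.09, edgeR adjusted p = 0.16), and it was 0.06 without TMM, so its direction depended on the scaling. All 4 *Usp39*-HKO livers lay below every control liver for *Oit3* and for *Gpr182* after TMM scaling (exact permutation p = 0.0286 each). On that scale the groups overlapped for *Stab1* (exact permutation p = 0.143) and for *Clec4g*. *Clec4g*, the gene of a C-type lectin known as LSECtin, was called in none of 16 alternative fits, with 18.0 to 24.9 FPKM in controls, 19.9 to 29.1 FPKM in *Usp39*-HKO livers and a fold change of 0.02 (SE 0.13, 95% interval −0.24 to 0.27, edgeR adjusted p = 0.938). *Lyve1* and *Clec4g* thus stood at opposite ends of the sinusoidal markers by fold change, a difference between genes that was not tested. Without control mouse A475 the fold changes were −0.28 for *Oit3*, −0.24 for *Stab1*, −0.18 for *Gpr182* and 0.03 for *Clec4g*, and none was called. By the mean of log2(FPKM + 1) over the 6 sinusoidal markers, control livers stood at 4.243 ± 0.083 and *Usp39*-HKO livers at 4.116 ± 0.053 (SD, n = 4, no test).

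The markers of endothelium in general were also not called. *Kdr* encodes VEGF receptor 2, the main signalling receptor for VEGF-A, and ranged from 14.8 to 17.2 FPKM in controls and from 14.2 to 18.1 FPKM in *Usp39*-HKO livers. Its log2 fold change was −0.16 (SE 0.11, edgeR adjusted p = 0.345) and 0.08 without TMM. *Pecam1*, the gene of the junctional adhesion molecule CD31, lies on the minus strand of chromosome 11 from 106654217 to 106750628. Its FPKM was 7.43, 8.15, 7.01 and 8.0 in control mice A468, A472, A473 and A475, and 9.10, 10.2, 9.12 and 10.3 in *Usp39*-HKO mice A469, A470, A471 and A474. In FPKM every *Usp39*-HKO liver was above every control liver (exact permutation p = 0.0286), by 1.27 times in the mean. After TMM scaling the groups overlapped, and 2 *Usp39*-HKO livers were above all controls (exact permutation p = 0.114). Relative to the median gene the difference was 0.11 (SE 0.09, 95% interval −0.07 to 0.28, edgeR adjusted p = 0.431), and *Pecam1* was called higher in 3 of 16 alternative fits, those without a scaling step between livers. Without control mouse A475 the fold changes of *Kdr* and *Pecam1* were −0.11 and 0.12, neither called.

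*Vwf* encodes von Willebrand factor, the adhesive plasma protein that larger vessels and platelets store, and lies on the plus strand of chromosome 6 from 125546774 to 125686679. Its FPKM was 1.61, 2.06, 1.34 and 1.18 in control mice A468, A472, A473 and A475. It was 2.17, 2.35, 2.61 and 2.86 in *Usp39*-HKO mice A469, A470, A471 and A474. In FPKM all *Usp39*-HKO livers were above all controls, with control mouse A472 the nearest to them (exact permutation p = 0.0286). After TMM scaling the groups overlapped, and 2 *Usp39*-HKO livers were above all controls (exact permutation p = 0.0857). The log2 fold change was 0.45 (SE 0.16, edgeR adjusted p = 0.066). It was not called, and 5 of 15 alternative fits did call it, at fold changes up to 0.69 without TMM (adjusted p = 0.0116). Without control mouse A472 it was 0.62 (adjusted p = 0.01), and without control mouse A475, the lowest liver, it was 0.33 (adjusted p = 0.17).

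*Cd34* encodes a sialomucin of capillary endothelium that haematopoietic progenitors and some fibroblasts also carry, and lies on the plus strand of chromosome 1 from 194938819 to 194961279. It had 26, 22, 15 and 16 counts in control mice A468, A472, A473 and A475 (0.388, 0.304, 0.239 and 0.211 FPKM). It had 27, 112, 58 and 101 counts in *Usp39*-HKO mice A469, A470, A471 and A474 (0.381, 1.51, 0.834 and 1.46 FPKM). Mice A470, A471 and A474 were above every control liver and mouse A469 was within the control range, so that the groups overlapped (exact permutation p = 0.0571). *Cd34* reached 0.5 FPKM in 3 livers, all of them *Usp39*-HKO, and therefore did not enter the fit described above. In edgeR with no filter on low values, over 28412 genes of which 13.2% were called, its log2 fold change was 1.58 (SE 0.32, 95% interval 0.96 to 2.2, adjusted p = 0.000681). It was called in all 11 alternatives to that fit, with fold changes between 1.33 without mouse A470 and 1.87 without TMM. The fold change without control mouse A475 was 1.45 (adjusted p = 0.00228), and edgeR's own filter gave an adjusted p of 0.012.

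**Figure D2:**
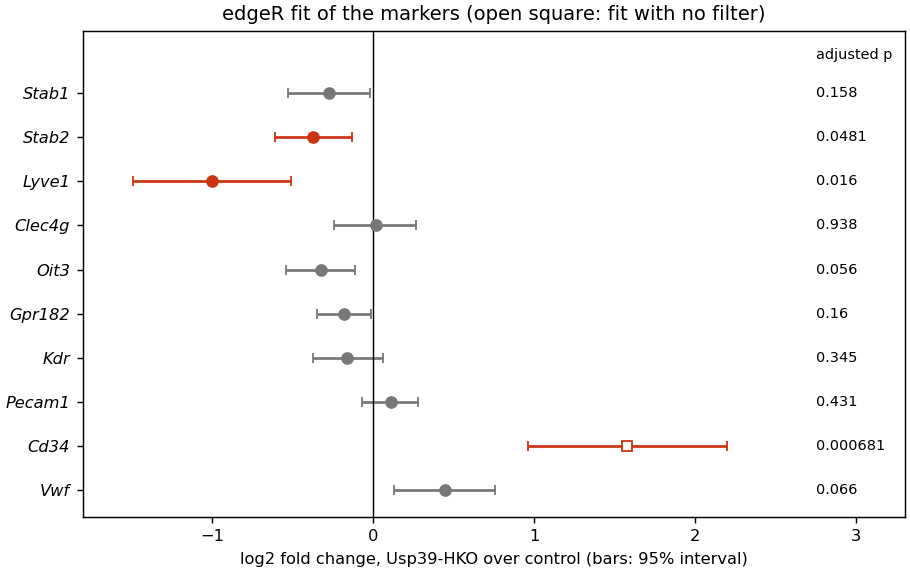
Log2 fold change between genotypes (*Usp39*-HKO over control) for each endothelial marker (x axis), with bars of the 95% interval, red for an adjusted p under 0.05 and the adjusted p printed at the right, where *Cd34* (open square) comes from the fit with no filter. *Lyve1* and *Stab2* (red) lie left of 0, *Cd34* (red) lies right of 0 at 1.58, and *Vwf* at 0.45 has an adjusted p of 0.066. The drawn intervals of *Stab1*, *Oit3* and *Gpr182* also lie left of 0 and that of *Vwf* right of 0, though none of these was called. The bars use the normal distribution and are narrower than the edgeR test implies. The unadjusted edgeR p was 0.0585 for *Stab1* and 0.0595 for *Gpr182*, both above 0.05.

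Within 1 liver, the ratio of a marker to *Stab2* does not depend on how libraries are scaled to each other. *Pecam1* over *Stab2* (ratio of FPKM) was 0.395 ± 0.0177 in control livers and 0.555 ± 0.0736 in *Usp39*-HKO livers (SD, n = 4). *Vwf* over *Stab2* was 0.0793 ± 0.014 and 0.144 ± 0.0294. For both ratios every *Usp39*-HKO liver was above every control liver. The denominator *Stab2* was itself called lower (log2 fold change −0.37), and neither *Pecam1* (0.11) nor *Vwf* (0.45) was called. A higher ratio is therefore not by itself a higher numerator. *Cd34* over *Stab2* was 0.0206, 0.0139, 0.0135 and 0.0109 in control mice A468, A472, A473 and A475 and 0.0203, 0.0855, 0.059 and 0.0718 in *Usp39*-HKO mice A469, A470, A471 and A474. Mouse A469 was again within the control range. *Lyve1* over *Stab2* was 1.14, 0.995, 1.62 and 1.08 in the controls and 1.02, 0.666, 1.06 and 0.394 in the *Usp39*-HKO mice in the same order. Only mice A470 and A474 were below every control on this ratio, and they were the 2 livers with the highest *Cd34*. *Stab1* and *Kdr* over *Stab2* had *Usp39*-HKO means 1.07 and 1.16 times the control means, with overlapping groups. These ratios were not tested.

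**Figure D3:**
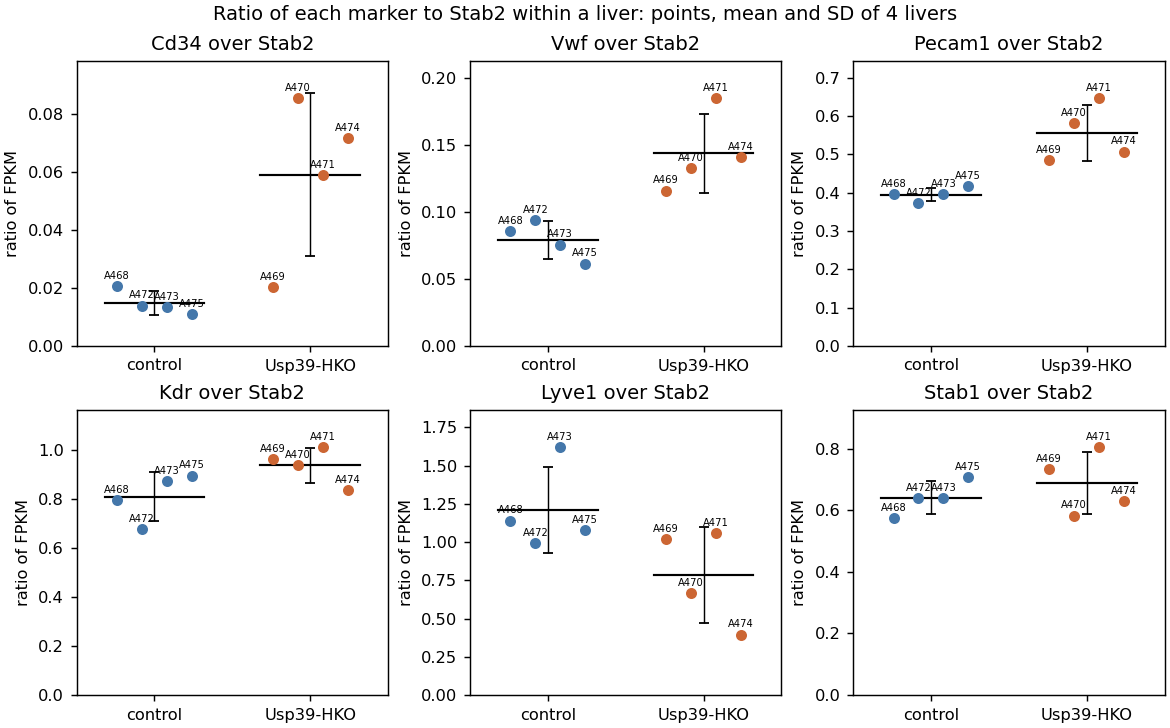
FPKM of 6 markers divided by the FPKM of *Stab2* in the same liver (y axis, from 0), with control livers in blue, *Usp39*-HKO livers in orange, and the mean and SD of 4 livers. *Vwf* and *Pecam1* over *Stab2* do not overlap between the groups, *Cd34* over *Stab2* is high in mice A470, A471 and A474, and *Lyve1* over *Stab2* is low in A470 and A474.

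Other genes of the endothelium were taken from lists written from textbook knowledge. Of 14 tested sinusoidal genes beside the markers, 3 were called, all higher, with a median log2 fold change of 0.21 against −0.0015 over all genes tested. This share is near the 22.5% of all genes tested that were called in either direction, of which 10.9% of all genes tested were called higher. The count was also 3 without control mouse A475. These were *Thbd*, the gene of the anticoagulant thrombomodulin (2.38 ± 0.891 to 7.1 ± 1.63 FPKM, log2 fold change 1.33, adjusted p = 0.00296), *Rspo3*, which encodes a Wnt-enhancing ligand made by central vein endothelium (0.92, adjusted p = 0.00528), and *Ptgs1*, the gene of cyclooxygenase-1 (0.48, adjusted p = 0.00944). Of 24 pan-endothelial genes, 22 were not called, where 22.5% of all genes tested were called. *Cd93*, an endothelial adhesion receptor, rose (0.53, adjusted p = 0.0256), *S1pr1*, the sphingosine-1-phosphate receptor of quiescent vessels, fell (−0.43, adjusted p = 0.0356), and *Ecscr* had a fold change of 0.79 with an adjusted p of 0.11. Without control mouse A473, without A475 or without *Usp39*-HKO mouse A474, none of the 24 was called. Over all genes tested these 3 fits called 1931, 2043 and 2094 genes, against 3225 with all livers. The median log2 fold change of the 24 was 0.09, between those of *Kdr* (−0.16) and *Pecam1* (0.11).

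Genes of continuous, arterial or activated endothelium had the most calls among the 4 endothelial lists, 11 of 19 tested genes, all higher, with a median log2 fold change of 0.62, where 10.9% of all genes tested were called higher. *Vcam1*, the adhesion receptor for leukocytes, rose from 5.15 ± 1.31 to 14.3 ± 3.29 FPKM (SD, n = 4, log2 fold change 1.22, edgeR adjusted p = 0.00117). *Nid1*, a basement membrane linker, rose from 9.62 ± 0.574 to 24.3 ± 7.86 FPKM (1.08, adjusted p = 0.00145), and *Mcam*, the gene of CD146, rose from 4.16 ± 0.413 to 7.87 ± 1.08 FPKM (0.68, adjusted p = 0.00297). Stellate cells and fibroblasts also express *Vcam1*, *Nid1* and the collagen IV genes of this list, and their own markers were higher in the same livers, as given below. The count was 7 without control mouse A475 and 7 without *Usp39*-HKO mouse A474, where calls over all genes tested fell from 3225 to 2043 and 2094. The 5 genes of the list that did not enter the fit were not tested. Their mean FPKM in control and *Usp39*-HKO livers was 0.307 and 0.683 for *Gja5*, 0.046 and 0.229 for *Sele*, 0.0364 and 0.111 for *Aplnr*, 0.0327 and 0.0482 for *Apln*, and 0.64 and 0.185 for *Esm1*.

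**Figure D4:**
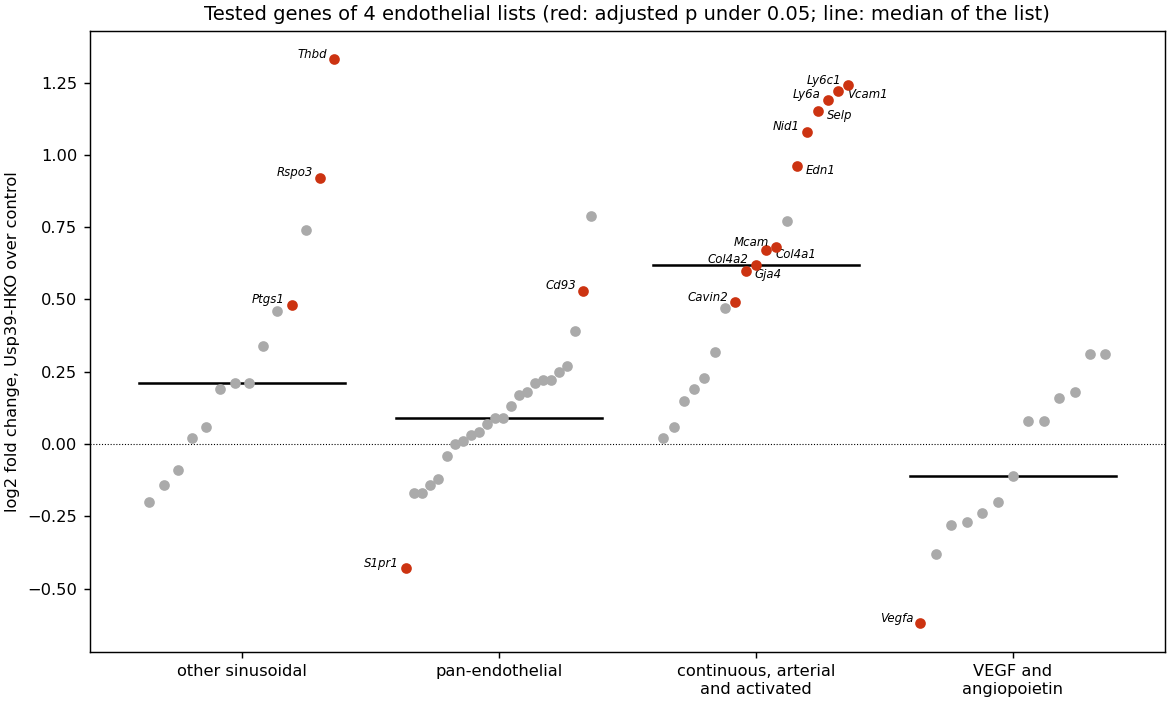
Log2 fold change between genotypes (*Usp39*-HKO over control, y axis) for each tested gene of 4 endothelial lists, with red and a gene name for an adjusted p under 0.05 and a horizontal line at the median of the list. The continuous, arterial and activated genes have a median of 0.62, and the other sinusoidal, pan-endothelial, and VEGF and angiopoietin genes have medians of 0.21, 0.09 and −0.11.

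The signals and factors that act on *Kdr* and on sinusoidal identity were next examined. *Vegfa*, the ligand of *Kdr*, which hepatocytes make, fell from 36.4 ± 1.51 to 27.8 ± 1.96 FPKM (SD, n = 4, log2 fold change −0.62, SE 0.09, edgeR adjusted p = 0.00165). The control livers lay at 34.3, 37.3, 36.4 and 37.6 FPKM and the *Usp39*-HKO livers at 28.5, 28.5, 24.9 and 29.3 FPKM, without overlap. It was the only 1 of 13 tested VEGF and angiopoietin genes to be called, where 22.5% of all genes tested were called. The count was also 1 without control mouse A475. The receptors *Nrp1* (−0.38, adjusted p = 0.077) and *Flt1* (−0.27, adjusted p = 0.0986) had the next smallest p-values. Without *Usp39*-HKO mouse A469, 6 of the 13 were called, and calls over all genes tested were 3510, against 3225 with all livers. Of 11 transcription factors tied to sinusoidal or vascular identity, 2 were called, against 22.5% of all genes tested. *Prox1*, which hepatocytes and lymphatic endothelium express, fell (−0.64, adjusted p = 0.00414). *Klf4*, a flow-responsive factor, rose from 1.37 ± 0.443 to 2.94 ± 0.608 FPKM (0.86, adjusted p = 0.0243). *Nr2f2*, the venous factor COUP-TFII, had a fold change of −0.25 with an adjusted p of 0.0564. *Gata4*, the factor that sets sinusoidal against continuous fate, had a fold change of 0.06 with an adjusted p of 0.689. *Gata4* was looked up after the values of its list had been seen.

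*Lyve1* and *Stab2* encode hyaluronan receptors, and of 10 other hyaluronan genes 5 were tested, with 3 called higher and 1 lower. Among all genes tested, 10.9% were called higher and 11.6% lower. *Hmmr*, a hyaluronan-binding protein also used by dividing cells, rose (log2 fold change 2.81, adjusted p = 0.000861), as did *Cd44*, the hyaluronan receptor of leukocytes and stromal cells (0.74, adjusted p = 0.0124), and *Tnfaip6* (1.85, adjusted p = 0.0301). *Hyal1*, a lysosomal hyaluronidase, fell (−0.47, adjusted p = 0.00517). Hyaluronan synthase *Has2* had 0 counts in every liver, where 3 counts correspond to between 0.288 and 0.349 CPM by liver.

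The markers that share expression with other liver cells were set beside markers of those cells. For *Cd34*, 9 of 13 tested stellate cell and fibroblast markers were called higher (10.9% of all genes tested) and none lower, with a median of 0.83, led by *Pdgfra* (1.39, adjusted p = 0.00177), *Dcn* (0.83, adjusted p = 0.00224) and *Lum* (2.42, adjusted p = 0.00228). Their summed FPKM was 77.3 to 89.1 in controls and 128, 233, 187 and 273 in *Usp39*-HKO mice A469, A470, A471 and A474, with A469 the lowest of the 4 and A470 and A474 the highest, as for *Cd34*. Of 7 tested lymphocyte and progenitor markers only *Ptprc*, the pan-leukocyte gene, was called (0.53, adjusted p = 0.0277), against 22.5% of all genes tested. *Kit* and *Cd79a* were not called (0.42, adjusted p = 0.0547, and −0.48, adjusted p = 0.335). The list summed to 8.8 to 10.1 FPKM in controls and 10.9 to 14.5 FPKM in *Usp39*-HKO livers. The part of these cells in the *Cd34* result was not tested.

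For *Vwf*, 1 of 5 tested platelet and megakaryocyte markers was called higher (10.9% of all genes tested). It was *Clec1b* (0.47, adjusted p = 0.0374), which sinusoidal endothelium and Kupffer cells are also known to express. *Pf4* (0.65, adjusted p = 0.232) and *Ppbp* (−0.93, adjusted p = 0.233), the chemokines of platelet granules, were not called, and *Gp1bb* had 0 counts in every liver. The list summed to 7.35 to 11.1 FPKM in controls and 9.39 to 16.0 FPKM in *Usp39*-HKO livers, and its part in the *Vwf* result was not tested. For *Lyve1*, the lymphatic gene *Ccl21a* had 0 counts in every liver and *Pdpn* was at 0.253 ± 0.139 and 0.392 ± 0.192 FPKM. *Mmrn1*, also lymphatic, was at 0.258 ± 0.0604 and 0.562 ± 0.22 FPKM. The other lymphatic markers *Prox1* and *Reln*, which hepatocytes and stellate cells express, moved in opposite directions (−0.64, and 0.69 with an adjusted p of 0.0129), and the 5 lymphatic markers summed to 32.3 to 43.5 FPKM in controls and 29.9 to 40.9 FPKM in *Usp39*-HKO livers. The part of lymphatic endothelium in the *Lyve1* result was not tested.

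Some macrophages also carry *Lyve1*, and macrophage markers were higher in the group in which *Lyve1* was lower. Of 10 Kupffer cell and macrophage markers, 7 were called higher (10.9% of all genes tested) and none lower, with a median of 0.60, led by the scavenger protein gene *Cd5l* (0.75, adjusted p = 0.00355), the complement receptor gene *Vsig4* (0.73, adjusted p = 0.00949) and the scavenger receptor gene *Marco* (1.25, adjusted p = 0.0117). They summed to 355 to 476 FPKM in controls and 641 to 990 FPKM in *Usp39*-HKO livers. Of the 10 hepatocyte markers 3 were called, all lower, where 11.6% of all genes tested were called lower and 22.5% in either direction. They were *Serpina1a* (−0.54, adjusted p = 0.014), *Cyp2e1* (−0.70, adjusted p = 0.0286) and *Cps1* (−0.48, adjusted p = 0.0443). The hepatocyte markers summed to 19500 to 21000 FPKM in controls and to 22900, 16500, 19900 and 16500 FPKM in *Usp39*-HKO mice A469, A470, A471 and A474, so that the livers with the lowest *Lyve1* also had the lowest hepatocyte sum. Of 5 tested cholangiocyte markers, 4 were called higher (10.9% of all genes tested), led by *Spp1* (2.32, adjusted p = 0.000924), *Epcam* (2.11, adjusted p = 0.00582) and *Krt19* (1.76, adjusted p = 0.0107). The part of these cells in the values of the endothelial markers was not tested.

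**Figure D5:**
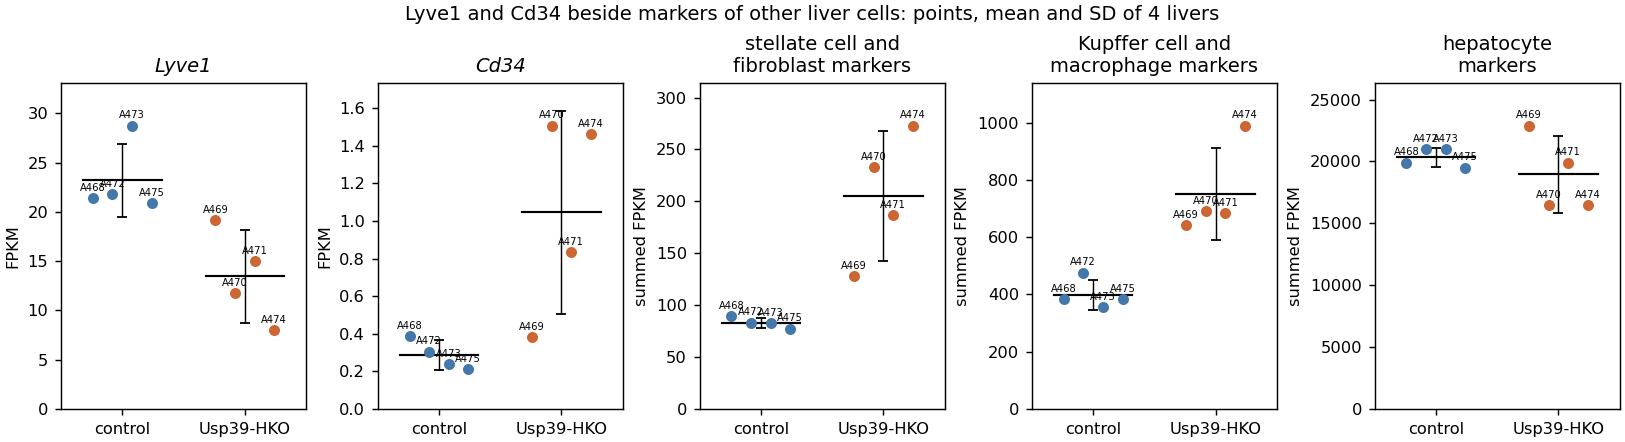
FPKM of *Lyve1* and *Cd34* and the summed FPKM of stellate cell, Kupffer cell and hepatocyte marker lists in each liver (y axes, from 0), with control livers in blue, *Usp39*-HKO livers in orange, and the mean and SD of 4 livers. Mice A470 and A474 have the highest *Cd34*, the highest stellate sums (233 and 273 FPKM) and the lowest *Lyve1*, and A469 is the *Usp39*-HKO liver nearest to the controls in *Lyve1*, *Cd34* and the stellate sum.

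Genes whose levels ran most closely with 4 of the markers over the 8 livers were found by Pearson's r of log2(CPM + 1) with TMM scaling, as a description of livers that share genotype and library. *Lyve1* ran with the hepatocyte genes *Cyp2e1* (r = 0.989), *Serpina3k* (r = 0.989) and *Qdpr* (r = 0.986). *Cd34* ran with *Col6a3*, a collagen VI chain (r = 0.991), *Ehd2* (r = 0.989), a caveolar protein, and the interferon-inducible *Ifi204* (r = 0.989). *Stab2* ran with *Chst13*, a chondroitin sulfotransferase (r = 0.986), *Mars* (r = 0.955) and the antisense gene *Sox6os* (r = 0.954), and *Vwf* with the sterol synthesis enzyme gene *Cyp51* (r = 0.974), *Cpz* (r = 0.969) and *Lmcd1* (r = 0.964).

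The exon lengths in the deposited table were those of GENCODE vM21 for all 10 markers. No exon base of the 10 was shared with another gene on the same strand, and the overlap with genes on the opposite strand was at most 5.93% of exon bases, for *Clec4g* with *Gm16553*. Because the strand setting of the counting is not given in the sources used here, reads in that overlap cannot be assigned.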

How the data were processed

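Total liver RNA was sequenced as paired-end reads on an Illumina NovaSeq, with 1 library per mouse and 4 mice per genotype. The authors trimmed reads with Trim Galore 0.6.1, aligned them to mm10 with HISAT2 and deposited raw counts per gene from featureCounts, gene lengths and FPKM computed from counts, length and library total. Strand setting, annotation release and treatment of multimapping reads are not given in the sources used here. The authors also deposited columns of their DESeq2 comparison (mean normalized signal, log2 fold change, its standard error and its test statistic, both scores, and p-values before and after adjustment), which were not used. The labels name no batch.

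The 14340 genes that reached 0.5 FPKM in 4 or more livers were tested on the counts with edgeR 4.0.16 (R 4.3.3), by glmQLFit and glmQLFTest with TMM factors (0.912 to 0.94 in controls, 1.01 to 1.19 in *Usp39*-HKO livers) and no covariates, after the script had been tested on simulated data. Adjustment of p-values (Benjamini-Hochberg) ran over all 14340 genes. The 95% intervals were computed from the SE with the normal distribution, which makes them narrower than the edgeR test implies. Single values were compared by two-sided exact permutation tests over 70 assignments, without adjustment over the 10 markers. Totals were 8589636 to 10418450 counts, and a floor of 3 counts was 0.288 to 0.349 CPM, covering counting error only. Livers of 1 genotype differed in their counts beyond counting noise (chi-square over degrees of freedom between 7.02 and 36.4). Nothing states that mice of a group came from separate litters, so p-values measure the spread between these 8 mice.

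The markers and gene lists were chosen with earlier results of these data known. Named were all 10 markers, the 3 tested genes of each list with the smallest p, *Usp39*, the 3 genes most like *Stab2*, *Lyve1*, *Cd34* and *Vwf*, genes of a list counted at 5 or fewer, and others where marked. Alternatives were DESeq2 1.42.0, limma 3.58.1 on log2(FPKM + 1) and log2(FPKM + 0.1), edgeR without TMM or with median-ratio factors, other filters and each liver left out. Coordinates are those of GRCm38 in GENCODE vM21.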

Additional observations from a re-analysis of the deposited data

Results flagged for a closer look

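In 20 groups of 4 livers (10 markers in 2 genotypes) 1 value stood apart from the other 3. The FPKM of *Lyve1* in control mouse A473 was 28.8, against 20.9 to 21.8 in the other control livers, a gap of 0.887 of the range of the group. At this limit chance marks about 1 group in 20, which is the number of groups looked at. Without this liver the log2 fold change of *Lyve1* was −0.87 with an edgeR adjusted p of 0.0537, and the other 3 control livers still lay above all 4 *Usp39*-HKO livers, the highest of which was at 19.1 FPKM.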

How the results depend on the processing

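Of 294 alternative values, 204 kept their direction and side of the threshold or stayed near the reported value, and 10 turned direction, none of them of a called marker. *Gpr182* turned from −0.18 to 0.06 in edgeR without TMM and to 0.05 in both limma fits, and *Kdr* from −0.16 to 0.08 and to 0.07. *Clec4g* turned from 0.02 to −0.01 with no filter, −0.04 without control mouse A468, −0.07 without *Usp39*-HKO mouse A471 and −0.01 without control mouse A473, and lay between −0.07 and 0.11 with a liver left out.

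The number of markers called higher was 0, and it was 1 in DESeq2, with no filter and with edgeR's filterByExpr (chosen after seeing the data, like the further fits of *Cd34*), 2 without TMM and in both limma fits, and 0 to 1 with a liver left out. With no filter and with filterByExpr that marker was *Cd34*, which did not enter the other fits. The number called lower was 2, and it was 1 without TMM, with median-ratio factors, at a mean FPKM of at least 5 and in both limma fits, 3 with filterByExpr (the third was *Oit3*), and 0 to 4 with a liver left out. Over all genes 3225 were called, 4211 without TMM, and 3668 and 3687 in limma on log2(FPKM + 1) and log2(FPKM + 0.1). The number was 1595 at a mean FPKM of at least 5, where fewer genes were tested, and 1931 to 3510 with a liver left out.

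Of other sinusoidal genes 3 were called, 8 without TMM, 7 in both limma fits and 3 to 5 with a liver left out. Of pan-endothelial genes 2 were called, 7 without TMM, 5 in both limma fits, 1 at a mean FPKM of at least 5 and 0 to 3 with a liver left out. Of continuous, arterial and activated genes 11 were called, and 7 to 11 with a liver left out. Of VEGF and angiopoietin genes 1 was called, 3 without TMM, 4 in both limma fits, 2 at a mean FPKM of at least 5 and 1 to 6 with a liver left out. Without TMM the median log2 fold change over all genes was 0.23. The cause of the other changes was not tested.

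The mean over sinusoidal markers in control and *Usp39*-HKO livers was 4.243 and 4.116. It was 5.767 and 5.653 from TPM, 4.354 and 4.008 from FPKM divided by the TMM factor, and 4.035 in *Usp39*-HKO livers with log2(FPKM + 0.1). The mean over vascular markers was 2.215 and 2.583. It was 3.373 and 3.909 from TPM, 1.555 and 2.187 with log2(FPKM + 0.1), and 2.293 and 2.494 from FPKM divided by the TMM factor, where the difference between the groups was smaller. *Cd34* had between 15 and 112 counts per liver, which limits its precision, and its FPKM also varied by 51.6% (coefficient of variation) between *Usp39*-HKO livers.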
